A study of Drosophila melanogaster with 93 samples.

Results

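The comparison was of males against females in fru P1 neurons of pupae at 48hr after puparium formation (48hr APF), measured by the regions called enriched for H3K9me3, the trimethylation of histone H3 at lysine 9. It used the 8 H3K9me3 peak lists of that stage, 4 from males and 4 from females, out of 31 H3K9me3 peak lists and 93 labelled samples in the series. These 8 were chosen by their labels alone, and the percent of each gene body and of each 10 kb bin that lay under a peak was set side by side between the sexes, with X and the autosomes kept apart. Both groups had the same genotype. They were w flies that carried P[w+mC, UAS-Gal4] over P[UAS-Chromatag], plus 1 copy of fru P1-Gal4, reared at 25 °C. Chromatag is histone H2B with a tag that the birA biotin ligase, expressed from the same transgene, can biotinylate. The fru P1-Gal4 driver directs it to cells in which the P1 promoter of fruitless is or has been active. Each library came from whole pupae, about 1000 animals pooled, that had been sorted by sex at the white prepupal stage. Chromatin was taken through 2 rounds of purification, so that a read should come from an H3K9me3 nucleosome of a tagged cell, and the label rests on the driver, since a peak list of 1 histone mark holds no expression of marker genes to test it against.

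H3K9me3 is the mark bound by HP1a, the protein that packs pericentromeric repeats, telomeres and most of the fourth chromosome into heterochromatin, and at lower levels it is also found across silent genes of the arms. Males have a single X, whose genes are transcribed at a raised rate by the MSL dosage compensation complex, while females have a pair. The fru P1 transcripts are spliced under the control of Sex lethal and transformer, so that males make the Fru-M transcription factors, which direct the wiring and function of the neurons for courtship, and females make none from this promoter.

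Peak coverage of X differed between the sexes throughout. The paper reports that its caller found very few peaks on male X, although DNA of that chromosome was recovered and sequenced. According to the paper, other settings and a different caller did not find many more. Peaks covered 0.839, 4.37, 1.78 and 1.57% of X in Male replicates 1 to 4, a mean of 2.14% ± 1.54 (SD, n = 4), and 27.8, 19.5, 20.3 and 22.2% in Female replicates 1 to 4, a mean of 22.4% ± 3.73 (SD, n = 4). The highest male library was far below the lowest female library. The difference was -20.3 points (exact permutation test, two-sided, p = 0.0286, the smallest that 4 against 4 allows). Peaks on X numbered 327 to 1358 in males and 4111 to 4780 in females, and those in males were shorter, with median widths of 545 to 676 bp against 847 to 990 bp (exact permutation p = 0.0286).

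The autosomes did not show this. Peaks covered 24.3, 27.6, 24.4 and 25.3% of the autosomes in males and 26.4, 22.9, 23.3 and 23.3% in females, and these values overlapped (difference 1.41 points, exact permutation p = 0.314). Peak numbers on the autosomes were also alike in range, 19935 to 22493 in males and 20501 to 21965 in females. X coverage divided by autosomal coverage in the same library was 0.0345 to 0.158 in males and 0.851 to 1.05 in females. Arm 2L had the largest autosomal difference among the 4 large arms, 26.5% ± 1.23 in males against 24.4% ± 1.47 in females (SD, n = 4 each, exact permutation p = 0.0571), and the libraries overlapped.

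**Figure D1:**
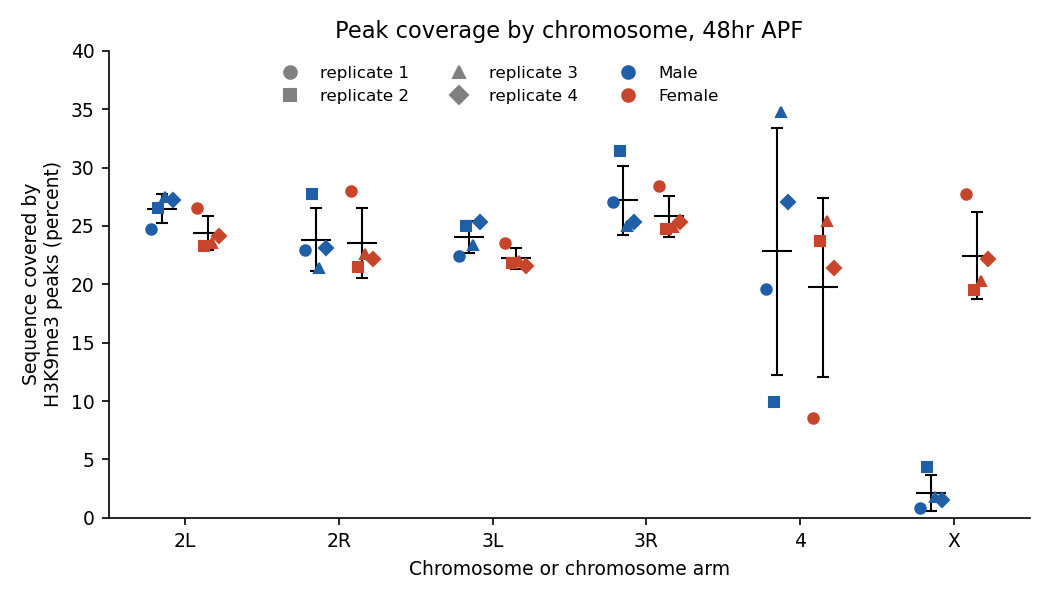
The percent of each chromosome or arm covered by H3K9me3 peaks at 48hr APF in each library, with bars at the mean and 1 SD of 4. Male libraries lie at 0.839 to 4.37% on X and female libraries at 19.5 to 27.8%, while the sexes overlap on every autosomal arm.

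2 libraries stood apart from their own groups. Chromosome 4, the small and largely heterochromatic autosome, was covered at 19.6, 9.96, 34.7 and 27.0% in males and at 8.53, 23.7, 25.4 and 21.4% in females, so Male replicate 2 and Female replicate 1 were the lowest of their sexes by a wide margin. These 2 also had the highest X coverage of their sex, and Female replicate 1 was the deepest, with 6295978 tags against 4009861 to 5191454 in the other 7. Their deviations from their group means across the tested autosomal bins correlated at 0.373, as a description over 9797 bins of the same libraries. With both left out, the X difference was -19.3 points, without overlap, and its exact permutation p was 0.1, the smallest that 3 against 3 allows. Chromosome 4 showed no difference beyond the spread with all 8 (exact permutation p = 0.686). Its mean coverage, 22.8% in males and 19.8% in females, was not above that of the other autosomes, 25.4 and 24.1%. Mean peak coverage in these lists thus did not set this largely heterochromatic chromosome apart from the arms.

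The sexes also differed in the level against which X peaks were called. Peaks were called where tags exceeded an expected number, and that number was set no lower than the genome-wide average of the library. On male X the median expected number at peaks was 1.0004 to 1.03 times this floor, with 59.2 to 85.2% of X peaks within 5% of it. On male autosomes it was 1.24 to 1.40 times the floor, and on female X 1.15 to 1.34 times. The median number of tags over X peaks was 0.757 to 0.826 of that over autosomal peaks in males and 0.993 to 1.03 in females (exact permutation p = 0.0286). Peaks were weak in both sexes. Their median fold enrichment averaged 1.47 in males and 1.47 in females on X, and 1.48 and 1.47 on the autosomes. A single X, fewer modified nucleosomes on each X and this floor cannot be told apart from peak lists, and the 2.14% is therefore a share of X that cleared the caller's threshold, not a level of the mark per chromosome. Nor can fewer tagged cells and less of the mark in each be told apart in such samples.

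Male coverage was lower from end to end of X. In all 24 consecutive windows of 1 Mb the highest male library was below the lowest female library. Male means ranged from 0.0677 to 5.05% and female means from 1.91 to 31.4%. The female level was itself uneven. It was 31.4% ± 3.60 in the fifth window and 16.6% ± 1.41 in the thirteenth, and it fell over the last 3 windows, next to the centromere, to 12.6% ± 2.50, 5.75% ± 1.80 and 1.91% ± 0.367 (SD, n = 4). In those 3 windows 57, 53 and 12 bins of 10 kb had a peak in at least 2 libraries. Only uniquely aligned reads entered the lists, so sequence that copies share in full was not seen. Whether the fall reflects less of the mark was not tested. In the second window Female replicate 1 reached 46.6% and Male replicate 2 reached 11.6%, while the other females were at 16.6 to 23.2% and the other males at 1.39 to 3.66%.

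**Figure D2:**
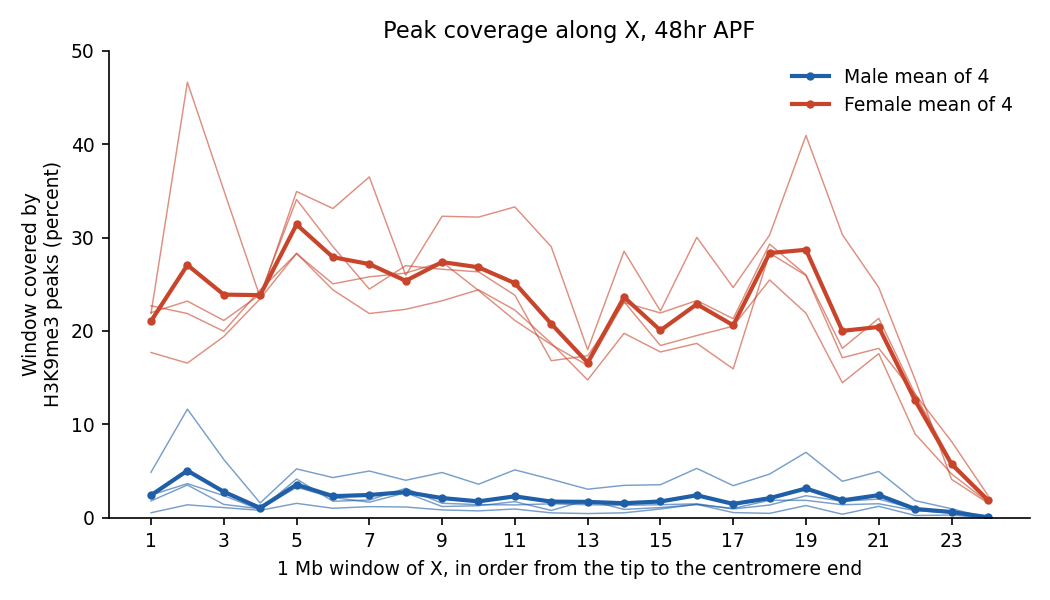
Peak coverage in consecutive 1 Mb windows of X at 48hr APF, the last window being shorter, with a thin line for each library and a thick line for the mean of 4. Male means stay between 0.0677 and 5.05% and female means between 1.91 and 31.4%, and the female line drops over the last 3 windows. The lists hold uniquely aligned reads only.

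Of the 2164 X bins of 10 kb with a peak in at least 2 libraries, 1021 had higher coverage in females and 0 in males at an adjusted p of 0.05 or less, which is 47.2% of X bins (limma, Benjamini-Hochberg adjusted over all 11961 bins). Among the 9797 autosomal bins 25 passed, 0.255%. The female mean was above the male mean in 2155 of the X bins, 99.6%, and in 4340 of the autosomal bins, 44.3%. The median male-minus-female difference was -20.4 points over X bins and 1.26 points over autosomal bins. In 707 X bins no male library had a peak at all, and 1 X bin had none in any female library.

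The X bins that passed had more coverage in females on the median. Their female mean had a median of 32.0%, against 15.8% in the 1143 X bins that did not pass, and the differences in the latter also had a median of -13.6 points. The sets had like base composition, with median GC contents of 41.4 and 43.1% and median shares of soft-masked repeat of 19.4 and 16.9%. Annotated mobile elements made up 2.42% of the called bins and 5.88% of the others on average. The number of X bins called depended on the libraries and peaks used. It was 180 without Male replicate 1, 523 without Male replicate 2, 246 without Male replicate 3 and 219 without Male replicate 4, and 0 when weak peaks were removed by p, by fold or by rank, although the covered share of X differed at an exact permutation p of 0.0286 under each of those.

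**Figure D3:**
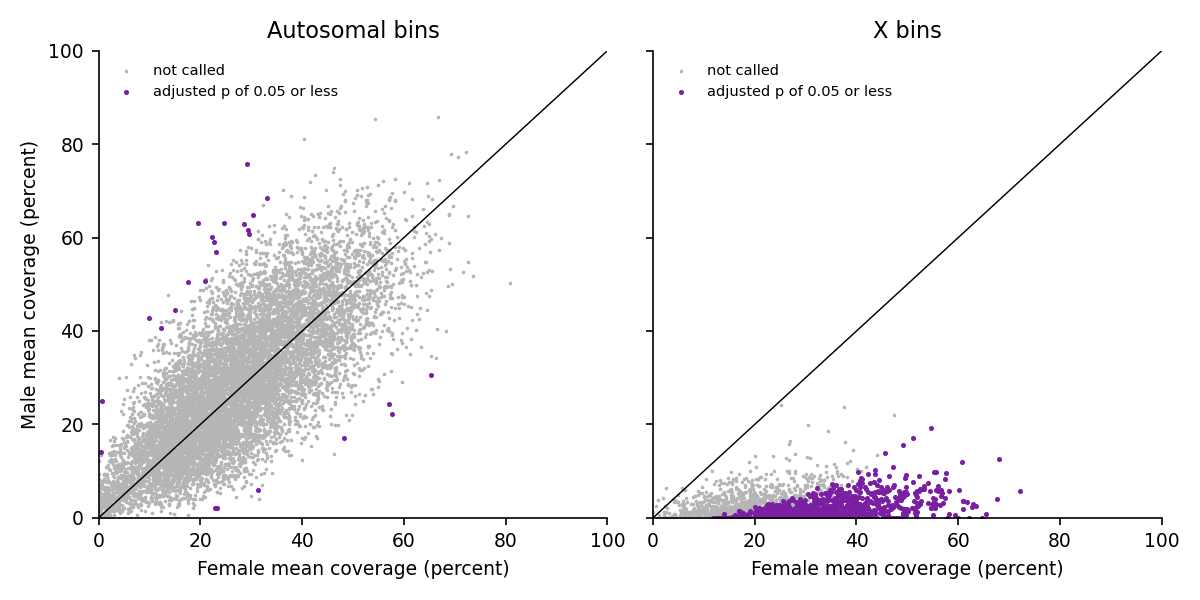
Mean coverage of each 10 kb bin in 4 male libraries against that in 4 female libraries, for autosomal and X bins, with bins that passed in purple and the line of equality in black. The 1021 X bins that passed lie along the bottom of the X panel, and the 25 autosomal bins that passed lie at the edges of a cloud around the line.

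Called bins of X formed 221 runs when a gap of 1 bin was allowed, and the median run was 40 kb. The longest, at chrX:4150001-4460000 (dm6), held 29 called bins of 31. It takes in Fas2, a cell adhesion molecule of axons, norpA, the phospholipase C of phototransduction, and bi, a T-box transcription factor. Its coverage was 1.04, 3.43, 3.54 and 2.22% in males and 38.3, 32.8, 31.8 and 37.7% in females. The next, at chrX:9690001-9990000, held 28 called bins of 30 and began with the zinc finger genes btd and Sp1. There the males were at 0.865, 3.19, 1.55 and 1.66% and the females at 42.9, 35.9, 31.1 and 39.2%. The groups were far apart in both.

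The other 3 of the 5 longest runs were of 180 or 190 kb. The run at chrX:7090001-7280000 included the 5′ part of Sxl, the X-linked switch gene of sex determination, together with fz4 and Cph, and was covered at 5.23% ± 2.79 in males and 34.4% ± 3.11 in females. The run at chrX:18910001-19100000 held 8 protein-coding genes, among them CG7378 and Diedel3, at 2.36% ± 1.39 against 27.4% ± 3.87. The run at chrX:13420001-13600000 reached from Set2, an H3K36 methyltransferase gene, to up, which encodes troponin T, at 2.16% ± 1.84 against 33.0% ± 3.53 (SD, n = 4 in each case).

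Sequence that all 4 male libraries shared on X was almost nil. It came to 1.73 kb, 0.00734% of the chromosome, against 387 kb, 1.64%, shared by all 4 female libraries. On the autosomes all 4 males shared 2.82% and all 4 females 2.23%. A like contrast was seen in the sequence of one sex alone. Both measures depend on the covered shares given above, and what those shares alone would give was not computed. On X 324 kb lay under a peak in every female and no male, and 0 kb in every male and no female, while on the autosomes these were 162 and 242 kb.

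The male-shared X sequence of at least 50 bp fell in 2 intervals, and both are shown here because both lay inside an annotated mobile element. The interval of 1355 bp at chrX:8294281-8295635 lies in an intron of nAChRalpha3, within a hobo (H) element of 2981 bp (RefSeq annotation of the Release 6 genome), a DNA transposon of which 60 copies or fragments were annotated, 50 of them on autosomes. The interval of 374 bp at chrX:22432913-22433286 is intergenic and lies within a rover element of 5291 bp, a retrotransposon with 11 annotated copies or fragments, 7 on autosomes. The stretch shown from its middle is a short tandem repeat. The third sequence is from the longest X interval with a peak in all 4 females and no male, 2282 bp in an intron of Appl, which holds no annotated mobile element. Each is 150 bases of the plus strand, and capitals mark copies of the 8-base unit GTTATTCT.
hobo interval, chrX:8294884-8295033: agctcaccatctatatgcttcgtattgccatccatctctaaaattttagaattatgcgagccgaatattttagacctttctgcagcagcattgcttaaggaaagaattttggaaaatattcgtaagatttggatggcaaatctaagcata
rover interval, chrX:22433025-22433174: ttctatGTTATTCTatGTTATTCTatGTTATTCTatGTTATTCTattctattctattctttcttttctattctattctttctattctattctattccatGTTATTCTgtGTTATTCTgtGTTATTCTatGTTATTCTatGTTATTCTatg
Appl interval, chrX:567887-568036: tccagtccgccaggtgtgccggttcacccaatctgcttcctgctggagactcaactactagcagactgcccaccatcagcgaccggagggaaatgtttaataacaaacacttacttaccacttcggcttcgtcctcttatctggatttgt
The rover stretch holds 9 copies of the unit and the other stretches hold 0. On either strand the unit occurs in 0.468% of all 150-base windows of X.

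The rover interval carried the strongest peak on X in 7 of the 8 libraries. Its fold enrichment was 2.55, 2.47, 5.36 and 4.71 in males and 2.0, 2.72, 3.40 and 3.04 in females, so the ranges overlapped and males were not low here. The hobo interval was covered from end to end in all 4 males and at 88.6 to 100% in females, with folds of 1.55 to 1.86 and 1.56 to 1.89. Mobile elements made up 5.43% of X, and 100% of what 4 males shared, 20.0% of what at least 3 shared, 1.79% of what at least 2 shared and 0.322% of what any male library covered. In females the same shares were 0.682, 0.283, 0.276 and 0.322%. On the autosomes peaks covered 3.87% of mobile elements in males and 3.12% in females on average. Outside the elements they covered 26.6 and 25.2%. The lists were made from uniquely aligned reads, so sequence that copies share in full was not seen.

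The X gene of at least 5 kb with the highest male coverage was w, the eye pigment transporter white, on the minus strand at chrX:2790599-2796466. It was covered at 30.2, 53.5, 44.3 and 10.6% in males and at 49.0, 55.0, 0 and 55.1% in females, so the groups overlapped and Female replicate 3 had no peak. The coverage was mainly over exons. These were covered at 55.4, 100, 90.2 and 17.6% in males and 81.8, 98.6, 0 and 100% in females, and the longest intron, of 3108 bp, at 2.16 to 12.1% in males and 0 to 17.5% in females. Male replicate 2 had its strongest peak of the 6 chromosomes here, at 4.20-fold, where the other males reached 1.45 to 1.59-fold and the females with a peak 1.42 to 1.64-fold. The genotype carries w+mC, a shortened white gene used as a transgene marker, and reads from it and from the gene on X cannot be told apart.

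The next 4 X genes of that length by male coverage were c11.1, yl, the yolk protein receptor, CG5937 and Spt6, a transcription elongation factor, with male means of 12.6 to 17.6% and female means of 22.7 to 36.3%. Their libraries overlapped between the sexes. Female replicate 1 was the highest female in all 4, at 64.9% in c11.1, 96.9% in yl, 36.6% in CG5937 and 85.4% in Spt6, and these genes were picked for their male level, so no test is given. Among 39 runs of at least 2 adjacent X bins with a peak in 3 or more males, the highest male mean was 16.5% ± 12.8, at Mur2B, a mucin-related gene, with 36.9% ± 19.9 in females. Next came the run with w and part of kirre, at 14.7% ± 7.59 against 21.4% ± 14, and that with CG3795 and Scgdelta, at 14.3% ± 11.9 against 32.5% ± 20.6. The run at Appl, a homologue of the amyloid precursor protein gene, was at 13.8% ± 5.99 against 49.8% ± 21.8 (SD, n = 4).

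Where males did have X peaks, these lay partly on sequence covered in females. In Male replicates 1 to 4, 50.9, 41.5, 50.7 and 47.6% of the covered X sequence was also covered in at least 2 females, which together took 25.6% of X. The same shares on the autosomes were 51.2, 48.5, 47.6 and 47.7%, where 28.4% lay under peaks of at least 2 females. The X peaks of males thus sat on female-covered sequence about as often as their autosomal peaks did.

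At the level of whole genes no gene passed on either X or the autosomes. There were 11016 genes over the minimum length of 1 kb and with a peak in 2 libraries or more, 1586 on X and 9430 on autosomes, among which limma called 0 at an adjusted p of 0.05 or less, the lowest being 0.174. At an unadjusted p under 0.05 there were 657 X genes, 41.4%, all with higher coverage in females, and on autosomes 301 higher in females, 3.19%, and 177 higher in males, 1.88%. By the simpler rule that the 4 values of one sex all exceed the 4 of the other, 504 X genes were higher in females, 31.8%, and 0 in males. The same rule gave 121 autosomal genes higher in females, 1.28%, and 113 higher in males, 1.2%. The median difference was -19.4 points over X genes and -0.85 points over autosomal genes.

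Among genes of at least 5 kb alone, fitted as an alternative, 249 of 658 X genes passed, 37.8%, all of them higher in females. Of 2909 autosomal genes 4 were higher in females, 0.138%, and 2 in males, 0.0688%. dpr5, an immunoglobulin superfamily gene, was the largest of the 6, at 59.4, 66.7, 46.9 and 47.8% in males and 28.8, 15.1, 21.7 and 9.82% in females (difference 36.3 points, SE 9.49, limma adjusted p = 0.0133 among long genes). alpha-Est10, a carboxylesterase gene, was also higher in males, by 33.1 points. CG11406, CG46463, Gk2, a glycerol kinase gene, and Capr differed by -33.0, -28.4, -23.7 and -22.4 points. The 6 genes were free of overlap between the sexes, but their correction was shared with the 249 X calls. Adjusted over autosomal genes of at least 1 kb alone, their limma adjusted p was 0.782 to 0.911. At 1 day and at 10-12 days dpr5, CG11406, Gk2 and Capr differed in the other direction, and alpha-Est10 and CG46463 in the same one. None of the 6 passed at either adult stage. A peak in all 4 females and in no male was found for 186 of 1975 annotated X genes of at least 1 kb, 9.42%, against 24 of 10205 autosomal genes, 0.235%. No X gene had a peak in all 4 males and no female, and 9 autosomal genes did.

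The 10 protein-coding X genes of at least 5 kb with the largest difference are given next. None passed over all genes (limma, adjusted p of 0.244 to 0.328), while in the fit of genes of at least 5 kb alone 8 of the 10 passed, the exceptions being trr (adjusted p = 0.0760) and THADA (adjusted p = 0.0549). The largest of the 10 was CG15478, at 0, 10.0, 0 and 18.5% in males and 80.0, 61.7, 79.5 and 52.2% in females, a difference of -61.2 points (SE 10.4). oc, the head gap homeobox gene, was at 3.18, 9.68, 17.1 and 4.23% in males and 38.9, 50.4, 51.6 and 86.0% in females, a difference of -48.1 points (SE 11.6). The groups were apart in both genes, and Female replicate 4 was the highest in oc.

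lz, a Runx transcription factor of eye and blood cells, had no peak in any male and 37.4, 57.5, 49.8 and 44.4% coverage in females. org-1, a T-box transcription factor, likewise had none in males and 64.0, 34.2, 65.6 and 27.2% in females. Of 1975 annotated X genes of at least 1 kb, 1066 had no male peak, 54.0%. Pdfr, the receptor for the circadian neuropeptide PDF, was at 0, 0.972, 3.99 and 1.78% in males and 53.1, 59.9, 37.5 and 45.8% in females. CCKLR-17D1, a receptor for sulfakinin peptides, was at 0 to 7.99% in males and 40.2 to 57.2% in females. The 2 receptors and lz passed in the fit of long genes (limma adjusted p = 0.0115 each), and org-1 did so as well (adjusted p = 0.0145).

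The remaining 4 of the 10 were more uneven among females. trr, an H3K4 methyltransferase, was at 77.1, 19.9, 74.6 and 25.0% in females and 0 to 12.7% in males. CG15765 was at 33.9 to 77.9% in females and 1.64 to 7.50% in males, and CG10804 at 34.5 to 53.5% and 0 to 9.97%. THADA was at 28.7 to 85.8% in females and had a peak in Male replicate 2 alone, at 26.9%.

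**Figure D4:**
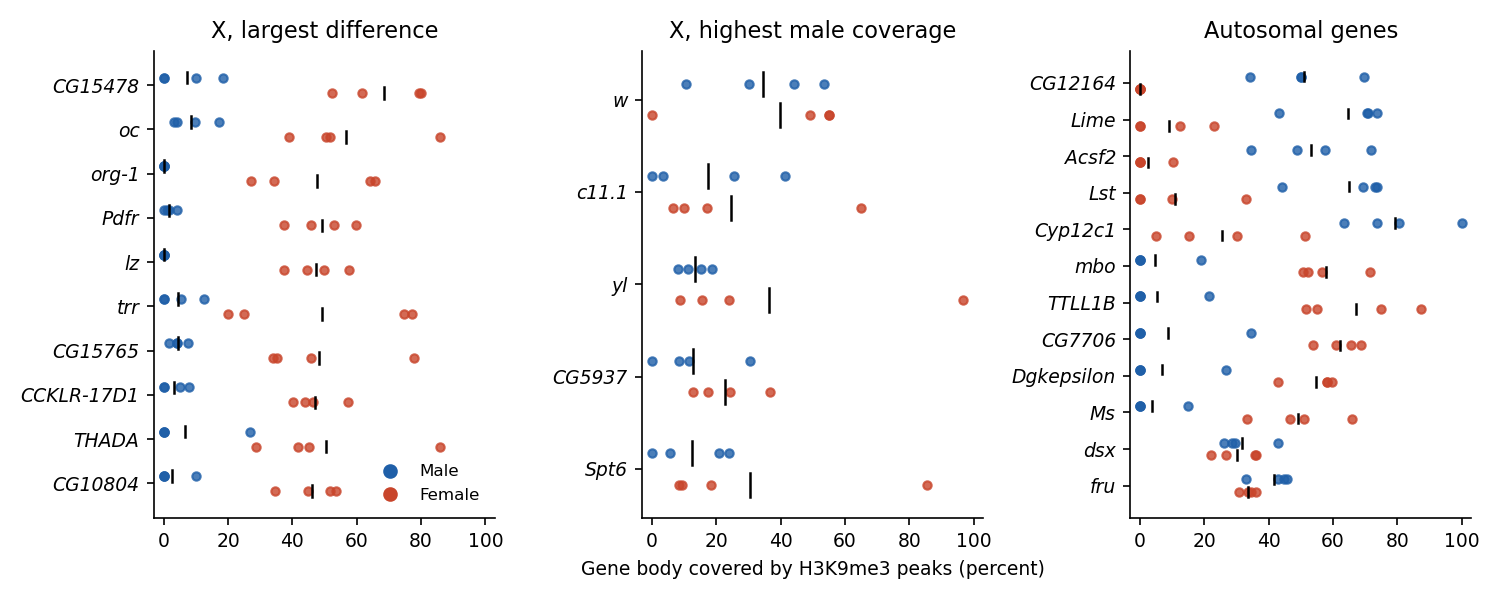
Percent of the gene body covered by peaks in each male and female library, with a black tick at the mean of 4, for X genes of at least 5 kb of largest difference or of highest male coverage, and for autosomal genes. The X genes of largest difference have all males at or under 26.9%, w has males from 10.6 to 53.5%, and fru and dsx overlap between the sexes.

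Genes of neuronal excitability, synapse and adhesion on X followed the chromosome. Of 29 such genes listed, 28 lie on X and were tested. All 28 had a higher female mean, 24 had females above males without overlap, against 31.8% of all X genes, and 21 of 26 of at least 5 kb passed in the fit of long genes, against 37.8%. Their median difference was -23.5 points, beside -19.4 over all X genes. The listed genes are mostly long, and that was not matched. para, the voltage-gated sodium channel, was at 0, 3.74, 2.38 and 1.15% in males and 27.3, 23.4, 36.1 and 30.9% in females. nAChRalpha3, an acetylcholine receptor subunit, was at 2.51, 7.30, 1.80 and 4.20% in males and 41.6, 32.1, 49.7 and 42.1% in females, its male coverage including the hobo interval above. Both passed among long genes (limma adjusted p = 0.0126 and 0.0115).

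Female coverage was low in some X genes of that list. elav, which encodes a neuronal RNA-binding protein, was at 3.71, 5.15, 0 and 19.4% in females and 0, 5.00, 0 and 0% in males. Ten-a, a teneurin for synaptic partner matching, was at 2.34 to 7.51% in females and 0.314 to 2.65% in males. The groups overlapped in both.

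Of 27 listed X-linked transcription factors 26 were tested, 17 had females above males without overlap, and 12 of 20 long ones passed among long genes, beside 31.8 and 37.8% over all X genes. Their median difference was -26.7 points, beside -19.4. Of these 26 genes 20 were of at least 5 kb, where 658 of all 1586 tested X genes were, and length was not matched. Sp1, in the second longest run, was at 0, 2.86, 6.70 and 0.748% in males and 57.2, 44.1, 26.2 and 43.4% in females. run, a pair-rule Runx factor, was the one with a male mean not below the female mean, at 0, 8.78, 35.9 and 0% against 33.6, 3.04, 0 and 7.91%. hang, a zinc finger gene of ethanol tolerance, overlapped too, at 5.31 to 16.5% against 0 to 47.1%.

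Genes of the sex determination pathway were 6 on X and 9 on autosomes, of which 4 and 7 were tested. No member passed. Sxl itself, like 54.0% of X genes of at least 1 kb, had no male peak. It was covered at 13.3, 3.36, 17.5 and 16.8% in females (difference -12.7 points, SE 4.46, limma adjusted p = 0.361). her, an autosomal zinc finger gene needed for Sxl and yolk protein expression, went the other way, at 34.6, 18.9, 26.8 and 18.5% in males and 0 in every female (difference 24.7 points, SE 6.54, adjusted p = 0.244). It was the only member with males above females without overlap, where 1.2% of autosomal genes met that rule.

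fru, at the head of the neurons studied, had no difference beyond the spread. Its 131 kb gene body on 3R was covered at 45.6, 42.9, 33.0 and 44.7% in males and 35.9, 33.5, 34.5 and 30.6% in females, a difference of 7.91 points (SE 8.48, limma adjusted p = 0.825). Male replicate 3 lay within the female range. dsx, the other sex-specific switch gene at the end of the pathway, was at 28.6, 26.0, 42.9 and 29.6% in males and 22.0, 36.1, 26.8 and 35.8% in females, a difference of 1.58 points (SE 8.85, adjusted p = 0.984), whose sign turned with the libraries used.

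The dosage compensation and heterochromatin machinery was mostly autosomal. Of the dosage compensation list 7 genes were tested and none passed. The female mean was higher in the 1 X gene and in 4 of the 6 autosomal genes. The male mean was higher in msl-3, by 6.25 points, and in JIL-1, by 0.433 points. Among the 6 autosomal genes only msl-2, given next, was free of overlap between the sexes. Of all autosomal genes 1.28% were free of overlap with females higher and 1.2% with males higher. msl-2, the male-specific subunit that sets up the complex, was at 0, 7.88, 0 and 0% in males and 50.6, 11.1, 17.2 and 24.1% in females (difference -23.8 points, SE 9.48, limma adjusted p = 0.415). lncRNA:roX1, the X-linked RNA of the complex, had no male peak, like 54.0% of X genes of at least 1 kb, and 8.39, 7.83, 0 and 28.8% in females. Of 16 heterochromatin genes tested none passed. The female mean was higher in both X genes and in 11 of 14 autosomal genes, where it was higher in 97.5% of all X genes and 52.8% of all autosomal genes. The gene that encodes HP1a had no peak in any male, like 9.27% of autosomal genes of at least 1 kb. It had 55.6, 31.7, 15.8 and 49.2% coverage in females (difference -38.1 points, SE 10.4, adjusted p = 0.246). The median difference of the 14 autosomal genes of that list was -8.75 points, beside -0.85 over all autosomal genes. Female replicate 1 was the highest female in 9 of the 14, 64.3%, and in 42.8% of all autosomal genes. Without it the median was -3.98 points, beside 1.94 over all autosomal genes. With Male replicate 2 left out as well, these medians were -7.42 and -0.67 points.

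Among 20 tested genes of courtship and transmitter identity, 19 of them autosomal, none passed, and differences went both ways. ChAT, the acetylcholine-synthesising enzyme, was at 56.8, 44.0, 36.7 and 43.1% in males and 28.9, 23.2, 24.5 and 28.9% in females, without overlap (difference 18.8 points, SE 8.76, limma adjusted p = 0.513). It was the only autosomal member of the list without overlap, where 1.2% of all autosomal genes had males higher in this way. The median over the 19 was -2.52 points. ppk23, a pheromone-sensing ion channel of fru P1 gustatory neurons that lies on X, had no male peak, like 54.0% of X genes of at least 1 kb. It had 80.5, 26.0, 48.3 and 66.2% coverage in females (difference -55.2 points, SE 12.2, adjusted p = 0.244). Of 16 chromosome 4 genes none passed or was free of overlap, and their median difference was 3.25 points. Over all autosomal genes 1.28% were free of overlap with females higher and 1.2% with males higher.

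The autosomal genes of at least 2 kb with the smallest p, 5 in each direction, did not pass either (limma adjusted p = 0.244 for each). 5 were higher in males. CG12164 was covered at 50.1, 50.1, 34.3 and 69.6% in males and 0 in every female. Acsf2, a predicted acyl-CoA synthetase gene, was at 57.5, 71.9, 48.7 and 34.6% in males, with a peak in Female replicate 1 alone, at 10.2%. Lime was at 43.2 to 73.7% against 0 to 22.9%, Lst, which encodes the peptide hormone limostatin, at 44.2 to 73.6% against 0 to 32.8%, and the cytochrome P450 gene Cyp12c1 at 63.5 to 100% against 4.90 to 51.3%.

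The 5 that were higher in females each had a peak in 1 male library only. TTLL1B, of the tubulin tyrosine ligase-like family, was at 0, 21.3, 0 and 0% in males and 74.8, 51.4, 55.0 and 87.3% in females. mbo, which encodes the nucleoporin Nup88, was at 0, 18.8, 0 and 0% in males and 50.7 to 71.4% in females. Ms, the neuropeptide myosuppressin, was at 14.9% in Male replicate 2 and 33.3 to 65.9% in females, CG7706 at 34.6% in that male and 53.6 to 68.8% in females, and the diacylglycerol kinase gene Dgkepsilon at 26.7% in Male replicate 1 and 43.0 to 59.6% in females. In 4 of these 5 genes the male with a peak was Male replicate 2.

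The 25 autosomal bins that passed were 18 higher in males, 0.184% of autosomal bins, and 7 higher in females, 0.0715%. 5 of them held no annotated gene. In 23 the sexes did not overlap, where 300 of all 9797 autosomal bins met that rule. The 25 were chosen by p on the same values, so this adds no support. At an unadjusted p under 0.05 there were 323 autosomal bins higher in males, 3.3%, and 169 higher in females, 1.73%. The largest of the 25 by difference, chr2L:11470001-11480000, held no annotated gene. It was at 63.4, 60.6, 82.3 and 96.6% in males and 32.9, 34.1, 22.2 and 27.4% in females (difference 46.6 points, SE 10.6, limma adjusted p = 0.0110). chr3L:10210001-10220000, with CG8065 and CG32055, was at 45.8, 57.2, 77.6 and 71.7% in males and 28.9, 25.6, 17.4 and 5.90% in females (difference 43.6 points, SE 9.84, adjusted p = 0.0109).

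The next male-high bins to be named were picked after their values were seen. The bin at chr3R:11020001-11030000 in side-VI, an immunoglobulin superfamily member of axon guidance, was at 17.8, 28.6, 31.5 and 22.1% in males and 0, 0, 0 and 2.33% in females (difference 24.4 points, SE 6.02, limma adjusted p = 0.0151). The bin in Dys, the dystrophin gene, differed by 36.5 points (SE 9.67, adjusted p = 0.0204), that in Dpp10, a dipeptidyl peptidase-like gene, by 34.4 points, and that in Nlg3, a neuroligin of the synapse, by 33.0 points. Other bins lay in Pde1c, a phosphodiesterase, nkd, an inhibitor of Wnt signalling, and sano, and differed by 34.5, 32.3 and 31.4 points. The male-high bins as a whole differed by 13.7 to 46.6 points.

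The female-high bins differed by -35.5 to -20.8 points. chr2L:20470001-20480000, with CG43233 and lncRNA genes, was at 29.1, 3.18, 22.7 and 33.8% in males and 37.9, 66.0, 58.3 and 68.6% in females (difference -35.5 points, SE 10.0, limma adjusted p = 0.0276). chr2L:2210001-2220000, with Uch and mio, was the steadiest, at 2.34 to 8.53% in males and 25.0 to 33.9% in females (difference -25.3 points, SE 7.56, adjusted p = 0.0378). The bin chr3L:4650001-4660000 holds TTLL1B, named above, and axo, and differed by -32.6 points.

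These autosomal calls were fragile. They numbered 3 without Male replicate 1, 7 without Male replicate 3 and 4 without Male replicate 4. When p-values were adjusted over autosomal bins alone, with the 1021 X calls out of the correction, limma passed 0. In fru P1 neurons of 1-day adults 0 of the 25 bins passed, with 18 differing in the same direction, where 0.147% of autosomal bins passed with females higher and 1.05% with males higher. At 10-12 days 1 passed, with 14 in the same direction, where the shares were 0.0297 and 0.534%. That bin, chr2L:8900001-8910000 in CG34398, was at 34.6 to 63.1% in the pupal males and 11.8 to 33.1% in the pupal females (difference 29.8 points, SE 9.38, limma adjusted p = 0.0496), and differed by 38.0 points at 10-12 days (adjusted p = 0.0190). Over the 25, the median difference in the direction seen at 48hr APF fell from 32.8 points to 3.07 at 1 day and 2.26 at 10-12 days.

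**Figure D5:**
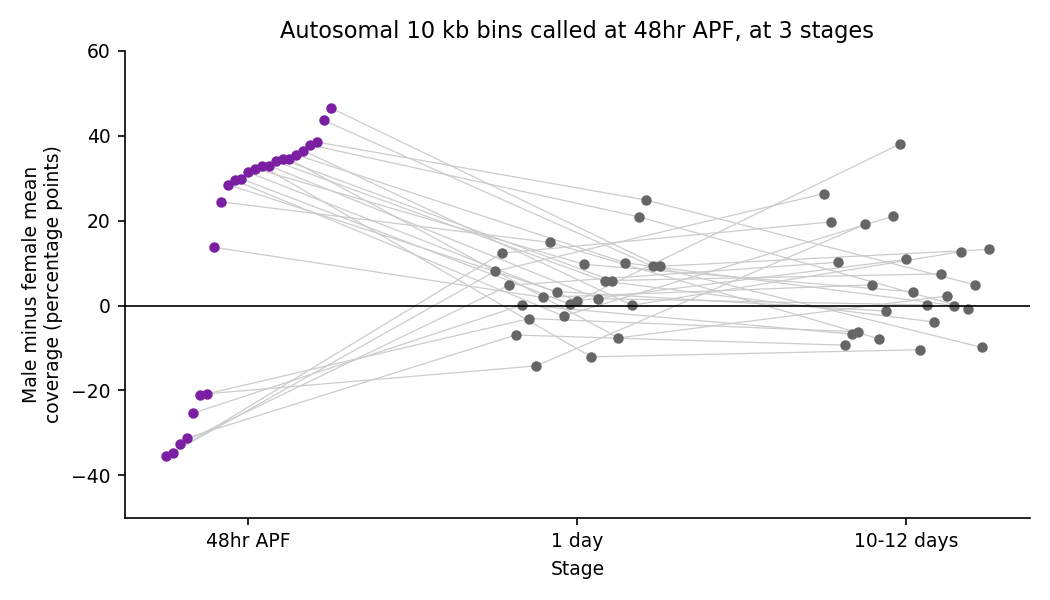
Male-minus-female mean coverage of the 25 autosomal bins called at 48hr APF, at that stage and in adult heads at 1 day and 10-12 days, with a grey line for each bin. The values span -35.5 to 46.6 points at 48hr APF, where the bins were chosen, and lie nearer 0 at both adult stages.

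The X bins gave another picture across stages. Of the 1021 called at 48hr APF, 813 passed with the same direction of mean in 1-day heads and 797 at 10-12 days, where 68.3 and 65.2% of all tested X bins passed with females higher. X coverage was 4.43% ± 1.63 in males and 28.9% ± 1.89 in females at 1 day, and 3.44% ± 0.933 (n = 4) and 24.5% ± 3.08 (n = 3) at 10-12 days. In a test of whether the sex difference at 48hr APF differed from that at 1 day, 2 of 11718 genes passed, 0.0171%, and 710 had an unadjusted p under 0.05 (limma interaction term). Both that passed lie on X. lncRNA:CR44753 had no peak in the pupal libraries other than Male replicate 4, at 50.4%, while 1-day females were at 84.6 to 100% and 1-day males at 0 (difference of differences 109 points, SE 14.1, adjusted p = 0.0130). CG5928 was at 0 to 18.3% in all pupal libraries, at 91.0 to 100% in 1-day females and at 0 to 27.1% in 1-day males (80.5 points, SE 11.3, adjusted p = 0.0171). In both the pupal sexes overlapped and 1-day females stood apart. The pupal samples were whole animals and the adult samples heads, so stage and tissue cannot be told apart in these differences.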

How the data were processed

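The deposited peak lists were made by the authors from trimmed reads aligned to dm6 with Bowtie2 2.2.5, of which those with a unique alignment were kept, with SAMtools 1.2 also named in the submitters' processing notes, which give MACS2 2.1.0, and called per library with MACS2 2.1.1.20160309 per the file headers, in broad mode at p of 0.01 for strong and 0.1 for weak regions, with 1 tag kept per position and an effective genome of 120000000 bases. Each library was set against 1 pooled input of its sex, of 42630701 (male) or 41654025 (female) tags, so input replicates do not enter the spread. The authors deposited peak positions, a pileup signal, −log10 p and a fold enrichment ratio for each peak. Filtered tags numbered 4009861 to 6295978 in the 8 libraries, which limits the precision of each list. No counts of reads per gene or bin were used here.

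Coverage was the percent of a gene body (Ensembl release 115, 18164 genes on 6 chromosomes) or 10 kb bin under any peak. Genes under 1 kb, and features with a peak in fewer than 2 libraries, were left out. Percentages were fitted with limma 3.58.1 (R 4.3.3), with a variance trend and adjustment over all features of a kind. The fit was first checked on simulated autosomal coverage with normal noise and no bounds on the percentages. That check did not cover X, where many features had no male peak. Covered shares of chromosomes were compared by two-sided exact permutation of the 8 libraries. Lists of 7 gene groups, the regions and the rule for named genes were chosen with earlier results of these data known. The rule named the 10 genes of at least 5 kb on X with the largest difference among those that passed, and since none passed, the 10 largest are given. It also named the 5 X genes of at least 5 kb of highest male mean, the 5 autosomal genes of at least 2 kb of smallest p in each direction, fru, dsx, members of the lists and the longest X runs. Runs of male coverage were defined after the data were seen, as were the exclusions of Male replicate 2 with Female replicate 1 and, for the heterochromatin list, of Female replicate 1 alone. Peak lists made with the elav driver were not used here. An X gene and a run of male coverage that the rule also chose are not reported here.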

Additional observations from a re-analysis of the deposited data

Results flagged for a closer look

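Among the 4 libraries of a sex, a value was singled out where its gap to the nearest other value exceeded Dixon's 95% critical share of the group's range, which chance does for about 1 in 20 groups. Female replicate 1 was high in the covered share of the autosomes (26.4%, the next 23.3%) and of arm 2R (28.0%, the next 22.6%), in Spt6 (85.4%, the next 18.5%) and in the male-covered run at CG3795 and Scgdelta (63.1%, the next 26.5%). It was also the deepest library.

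Single male libraries were the only ones with a peak in mbo (18.8%), TTLL1B (21.3%), CG7706 (34.6%), Dgkepsilon (26.7%), Ms (14.9%), THADA (26.9%) and CG10804 (9.97%), and a single female library in Acsf2 (10.2%). The low values were Lime (43.2%) and Lst (44.2%) in males, and Dgkepsilon (43.0%), w (0%) and the fifth longest called run of X (27.7%) in females. In all, 17 of 88 groups were singled out. Many of these genes were named for a group that lay near 0, where a single peak gives the largest gap possible.

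The sex difference at 48hr APF differed from that at 1 day by a limma interaction term in lncRNA:CR44753 (109 points, adjusted p = 0.0130) and CG5928 (80.5 points, adjusted p = 0.0171). In both, the value that stood apart was that of 1-day females.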

How the results depend on the processing

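The covered share of X kept its direction under all alternatives, its difference lying at -21.3 to -18.5 points over the fits that left out 1 library. Its two-sided exact p of 0.0286 rose to 0.125 (difference -20.3) with the replicate numbers as a block and to 0.1 (difference -19.3) without Male 2 and Female 1, the smallest p that either design allows. The autosomal difference of 1.41 points ranged from 0.67 to 2.22 over the fits without 1 library, and became 3.08 (exact p = 0.0286) with the 10000 peaks of smallest p. X bins called numbered 1021, and 104 in bins of 5 kb, 396 in bins of 50 kb, 599 without a variance trend, 1567 with X alone and 109 with coverage relative to that of X or the autosomes in each library, and 180 to 1145 without 1 library. They numbered 0, with 0 autosomal bins, when peaks were limited to p of 0.05 or less, to 1.5-fold or to the top 10000. The 25 autosomal bins became 58 on the arcsine scale, 1 in bins of 5 kb, 12 in bins of 50 kb, 0 with autosomes alone, 1 on the relative scale, 300 by no overlap, and 3 to 29 without 1 library. By limma, X genes called, 0 as reported, were 249 at 5 kb or more, 26 with 3 kb added on each side, 344 with X alone, 504 by no overlap and 0 to 1 without 1 library. Autosomal genes called were 6 at 5 kb or more, 234 by no overlap and 0 without 1 library. The cause of these changes was not tested.

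The labels do not say whether equal replicate numbers pair the samples. Same-numbered male and female libraries had deviations that correlated at -0.036, -0.193, 0.077 and 0.011 over autosomal bins, which cannot settle it. With the number as a block 832 X bins, 14 autosomal bins and 0 genes were called, and the autosomal share had an exact p of 0.5. Relative to chromosome class, the male-minus-female differences turned sign for CG15478 (0.44), oc (1.98), CG15765 (0.26) and dsx (-0.0122), in units of the class mean. Cyp12c1 was -12.6 points with peaks of at least 1.5-fold. dsx was -0.97 with log2 tags as a covariate, -1.14 without Female replicate 1 and -2.13 to 3.56 over the fits without 1 library, the lowest being without Male replicate 3. Of the other results for named genes and for the 25 autosomal bins, 704 kept their side of the threshold, 21 passed that had not and 324, all of bins, no longer passed.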
